A study of Saccharomyces cerevisiae with 24 samples.

Results

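Diploid budding yeast carrying 2 altered forms of the RNA-binding protein Pho92 were compared with each other in meiosis. In one strain, called L38P, leucine 38 of Pho92 was replaced by proline. In the other, called Δ35–42, residues 35 to 42 were removed, position 38 among them. The 6 libraries, 3 of each strain, were selected by their sample titles from 24 libraries in 8 groups. Both strains are MATa/alpha diploids with LYS2 inserted at ho, the alleles lys2 and ura3, and hisG insertions in leu2, his3 and trp1. In both, the labels give the native gene as hyg::pho92, and an HA-tagged PHO92 mutant was integrated at trp1 under the copper-inducible CUP1 promoter. Cells were grown in rich medium, then in acetate medium, and transferred to sporulation medium. Copper sulfate was added to 50 µM at 3 h after this transfer, and the time of collection after copper is not given in the sources used here. Polyadenylated RNA was sequenced. CUP1-PHO92, with the wild-type protein from the same promoter, and pho92Δ, without PHO92, were used as reference groups of 3 libraries each. The remaining groups were titled WT and, for mutants of the CUP1 construct, L35A, I39A and W177A. They entered only the shared model, the figures and the ranks among the 8 groups. All groups received copper in the same way.

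Pho92 belongs to the YTH family of readers of N6-methyladenosine (m6A), a base modification that the Ime4 methyltransferase complex places on mRNA in yeast meiosis. Entry into meiosis is driven by the transcription factor Ime1 and the kinase Ime2, which switch on early genes for recombination and chromosome pairing. The transcription factor Ndt80 then switches on middle genes for the meiotic divisions and spore formation. Genes for ribosomes are known to be repressed when yeast is starved. The series' design text calls the altered proteins IDR mutants.

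The coding sequence of PHO92 around the altered residues is shown because it is what distinguishes the strains. It was read from the RefSeq assembly R64, where PHO92 (YDR374C) lies on the minus strand of chromosome IV and encodes 306 residues. Codons 31 to 46 are printed in the sense of the mRNA, with the 24 bases removed in Δ35–42 in capitals in the first line and the codon changed in L38P in capitals in the second.
deleted codons: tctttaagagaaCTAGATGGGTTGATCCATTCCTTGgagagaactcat
codon 38: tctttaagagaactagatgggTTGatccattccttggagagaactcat
The capitals of the first line encode leucine, aspartate, glycine, leucine, isoleucine, histidine, serine and leucine. The codon by which proline was encoded is not given in the labels. Each allele was present in 1 strain by the strain numbers of the table, so allele and strain cannot be told apart. Those numbers give 10829 for both CUP1-PHO92 and W177A, which have different titles. Groups were taken from the titles. Protein levels were not measured in these data.

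The 6 libraries held 21009021 to 25710208 counts, against 16108079 to 36733806 over all 24. At these depths 3 counts, taken as the floor of detection, correspond to 0.104 to 0.136 CPM (the scale of counts per 1000000, with library sizes adjusted by TMM). L38P replicate 2 was labelled batch B and the other 5 libraries batch A, so the comparison within batch A is the one without L38P replicate 2. PHO92 had 11867, 12320 and 10668 CPM in L38P and 12254, 8016 and 7571 CPM in Δ35–42. The groups overlapped, and the log2 fold change of L38P against Δ35–42 was 0.32 (standard error 0.267, edgeR quasi-likelihood adjusted p = 0.357). TRP1, the locus of integration, had 23.4, 25.5 and 31 CPM in L38P and 9.09, 13.2 and 10.8 CPM in Δ35–42. It was higher in every L38P library, by 1.27 on the log2 scale (standard error 0.202, adjusted p = 0.000149). Mean TRP1 was 23.8 CPM in W177A, 21.7 in pho92Δ, 18.2 in WT, 16.3 in L35A, 8.83 in I39A and 7.56 in CUP1-PHO92. Against pho92Δ, L38P gave 0.29 (edgeR adjusted p = 0.274). TRP1 belongs to tryptophan synthesis, and a difference at the locus and a difference in its expression cannot be told apart here. Markers of haploid or mating cells had few calls. Of 21 such markers, MFA2 and MF(ALPHA)2 had too few counts to be tested. Of the other 19, 1 was higher and 1 lower, against 19.4% and 16.9% of all features. Without L38P replicate 1 the lower calls were 4, without Δ35–42 replicate 3 they were 3, and leaving out any of the other 4 libraries gave no call in either direction. Their mean level ran from -0.23 to -0.12 in L38P and from -0.26 to 0.14 in Δ35–42, in log2 units relative to CUP1-PHO92.

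Genes for ribosomes were higher in L38P than in Δ35–42, and genes of meiosis were lower. In one edgeR quasi-likelihood model of all 24 libraries, 2069 of 5698 features (36.3%) had an adjusted p under 0.05. Of these, 1107 features (19.4%) were higher in L38P and 962 (16.9%) were lower. The 3 libraries of one strain lay all above the 3 of the other for 2401 features (42.1%), and 1847 features met both criteria. Small differences were common, since 921 called features differed by less than 0.5 on the log2 scale. The median over all features was 0.02, and the medians of the 16 chromosomes lay between -0.07 (VI) and 0.10 (VIII). At a log2 fold change of at least 1 the calls were unequal, with 256 features higher in L38P and 64 lower. Of the 256, 120 (46.9%) encoded cytosolic ribosomal proteins, as did 127 of all 5698 features. Of the 64, 27 were in the lists of meiotic genes, which held 25, 10, 6, 32 and 16 tested genes. The 12 largest lower differences named below all missed the threshold without L38P replicate 2. The count of 2069 fell to 1123 without L38P replicate 2 and to 1243 without Δ35–42 replicate 1.

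**Figure D1:**
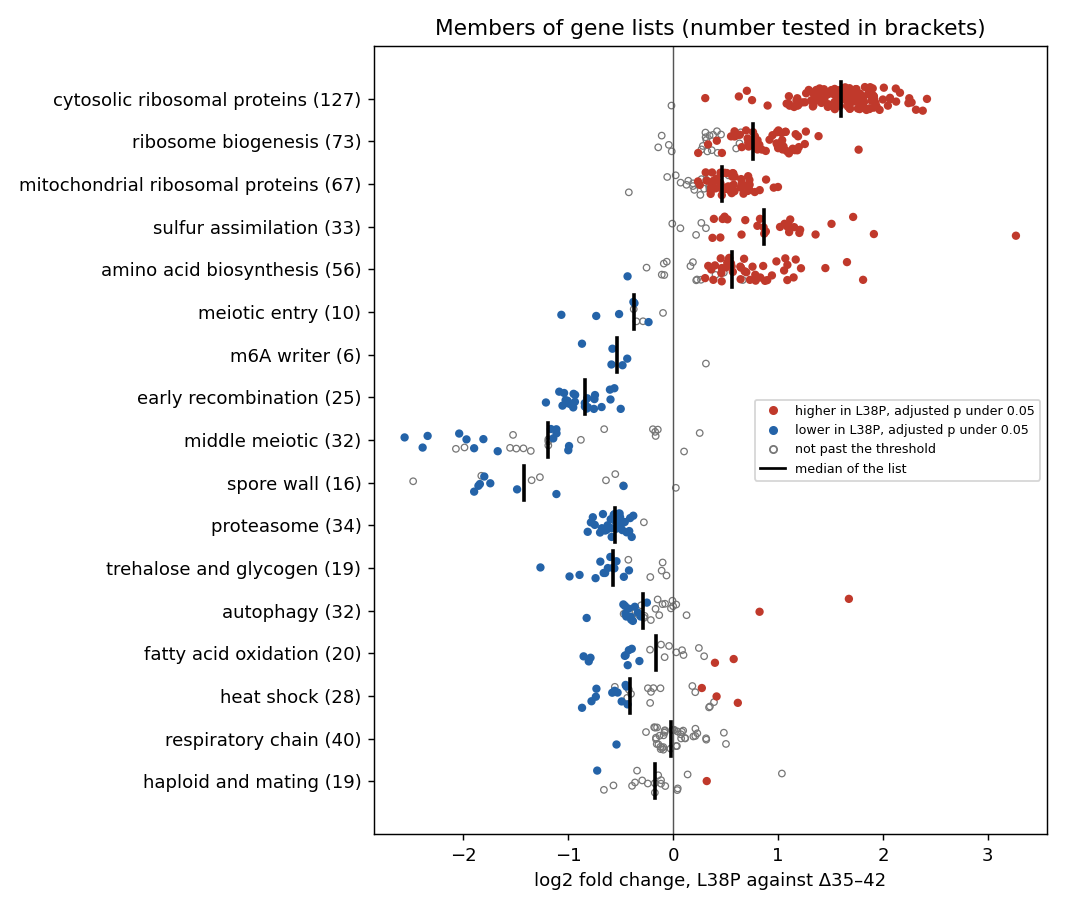
Log2 fold change of L38P against Δ35–42 (x axis) for each tested member of 17 gene lists (y axis, number tested in brackets). Red and blue points passed an adjusted p of 0.05 as higher and lower in L38P, open points did not, and the black line is the median of the list. All but 2 of the 127 cytosolic ribosomal protein genes are red, and all 25 early recombination genes are blue.

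Genes of cytosolic ribosomal proteins rose together in L38P. Of 138 such genes in R64, 127 were tested and the other 11 had no feature among the deposited counts. Among the 127, 125 were higher in L38P and none was lower, against 19.4% and 16.9% of all features. Their median log2 fold change was 1.60, a 3.04-fold higher level, beside 0.02 over all features. They took 1.86% to 2.52% of the counts of an L38P library and 0.665% to 0.824% of a Δ35–42 library. Most of these genes are pairs of near-identical copies, so the split of reads between the copies is uncertain. In RNA of a whole culture, fewer cells of a type and less RNA per cell cannot be told apart.

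RPS3, which encodes a protein of the small subunit at the mRNA entry site, had 332, 448 and 462 CPM in L38P and 115, 81.6 and 100 CPM in Δ35–42. Every L38P library was above every Δ35–42 library, and the log2 fold change was 2.07 (standard error 0.268, adjusted p = 1.81e-05). RPL1B, for a protein of the large subunit, had 151, 207 and 228 CPM in L38P and 44.5, 33.8 and 45.6 CPM in Δ35–42. The groups were again apart, by 2.24 (standard error 0.231, adjusted p = 6.05e-06). RPL14B had the smallest p of the list, with 66.2, 80.3 and 84.8 CPM in L38P and 26.9, 22.9 and 29.7 CPM in Δ35–42. Its log2 fold change was 1.54 (standard error 0.138, adjusted p = 2.87e-06). The largest difference of the list was that of RPS22A, with 32.5, 55.3 and 44.7 CPM against 9.82, 6.06 and 8.88 CPM, a log2 fold change of 2.42 (standard error 0.315, adjusted p = 1.81e-05). RPS12, RPL30, RPL37A, RPS9A, RPS7A, RPS17B and RPL20A were also among the largest, with 2.01 (RPL20A) to 2.32 (RPS12). The 2 genes that did not pass were RPL41B (1.40) and RPL15B (-0.02). The number of the 127 called higher was between 120 and 126 under the alternatives tried.

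The genes that build ribosomes shifted in the same direction by less. Of 73 tested genes for ribosome biogenesis and RNA polymerase I, 54 were higher in L38P and none was lower. Of all features, 19.4% were higher and 16.9% lower. The median log2 fold change of the 73 was 0.76. DBP3, an RNA helicase of large subunit assembly, had 60.2, 85.7 and 61.6 CPM in L38P and 37.2, 30.5 and 44.7 CPM in Δ35–42. All 3 L38P values were above the Δ35–42 values, by 0.88 on the log2 scale (standard error 0.159, adjusted p = 0.000432). UTP6, a component of the small subunit processome, had 35.3, 49.9 and 36.2 CPM against 17.6, 16.7 and 20.8 CPM, a log2 fold change of 1.14 (standard error 0.184, adjusted p = 0.000162). NSR1, a nucleolar protein needed for pre-rRNA processing, had the largest difference of the list at 1.77 (adjusted p = 0.00359). Without L38P replicate 2, which left only batch A, 22 of the 73 were called.

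A promoter window of DBP3 is shown because a known element of these genes lies in it. The PAC element, searched as GCGATGAG on both strands of the 300 bases before the start codon, was found in 41 of the 73 genes (56.2%) and in 4.41% of 5489 promoters. A match, here and below, is a description of these letters and not of binding. The shares describe lists that were chosen with earlier results of these data known. They are no test of the comparison between the strains. The window lies on the minus strand of chromosome VII in R64, from 154 to 125 bases before the start codon, with the reverse complement of PAC in capitals.
DBP3: aaatttttcacCTCATCGCataagaagcaa
The Rap1 core ACCCATACA, searched in the same way, was in 5.51% of the 127 ribosomal protein promoters and in 0.583% of all. That is 7 of 127, so few promoters of the list held these exact letters.

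Mitochondrial ribosomal protein genes were also higher in L38P, with 48 of 67 called higher, none lower and a median of 0.46. Of all features, 19.4% were higher and 16.9% lower. The 48 calls fell to 33 in a fit of only the 6 libraries, and to 17 when replicate number was added to that fit. Leaving out 1 library gave 37 to 53. MRP13 had 53.7, 55.3 and 53.4 CPM in L38P and 38.8, 33.8 and 35.7 CPM in Δ35–42. These values were tightly grouped and apart, with a log2 fold change of 0.59 (standard error 0.0875, adjusted p = 8.16e-05). RSM26 had 36.2, 40.0 and 40.1 CPM against 22.1, 22.5 and 25.6 CPM, a log2 fold change of 0.73 (standard error 0.108, adjusted p = 7.83e-05). Genes of the respiratory chain, whose proteins include products of mitochondrial translation, gave another picture. None of 40 was higher and only NDI1, the internal NADH dehydrogenase, was lower, by 0.54 on the log2 scale (standard error 0.133, adjusted p = 0.00465). The median of these 40 genes was -0.02. Without L38P replicate 1, 2 of the 40 were called higher, and without L38P replicate 3, 2 were called lower.

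Sulfur assimilation held the largest single difference among all 5698 features. JLP1, a sulfonate dioxygenase that lets cells use sulfonates as a sulfur source, had 25.4, 103 and 83.7 CPM in L38P and 7.15, 7.43 and 7.48 CPM in Δ35–42. The lowest L38P library was still above the highest of Δ35–42, and the log2 fold change was 3.27 (standard error 0.346, adjusted p = 6.05e-06). Of the 33 tested genes of the list, 28 were higher in L38P and none was lower, against 19.4% and 16.9% of all features. The median was 0.87. MUP1, the high-affinity methionine permease, had 228, 379 and 335 CPM in L38P and 174, 129 and 132 CPM in Δ35–42. It was higher in every L38P library, by 1.12 (standard error 0.149, adjusted p = 2.42e-05). MET14, the kinase that makes the activated sulfate PAPS, had 36, 57.5 and 58.0 CPM against 14.7, 19.4 and 25.0 CPM, a log2 fold change of 1.36 (standard error 0.215, adjusted p = 0.000141). MET17, which makes homocysteine from sulfide, was higher by 1.72 (adjusted p = 0.00143) and the S-methylmethionine permease MMP1 by 1.91 (adjusted p = 0.000177). The sulfate permease SUL1 did not pass, with -0.01, nor did MET4, the activator of the pathway, with 0.27 (adjusted p = 0.0661).

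The MET14 promoter is shown for its Cbf1 element, CACGTG, a palindrome bound by Cbf1 in this pathway. The element was in 10 of the 33 promoters (30.3%) and in 3.61% of all. The core TGTGGC of the Met31 and Met32 site was in 18 of 33 (54.5%) and in 8.25% of all. The window is from the minus strand of chromosome XI in R64, from 240 to 211 bases before the start codon.
MET14: tgccactaatttCACGTGatcaatatattt

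Amino acid biosynthesis followed, with 42 of 56 tested genes higher in L38P and 1 lower, against 19.4% and 16.9% of all features. The median was 0.56. TRP2, of anthranilate synthase in the tryptophan pathway, had 152, 155 and 164 CPM in L38P and 79.3, 87.6 and 112 CPM in Δ35–42. The groups did not overlap, and the log2 fold change was 0.76 (standard error 0.134, adjusted p = 0.000354). ASN2, an asparagine synthetase, had 310, 302 and 315 CPM against 195, 183 and 215 CPM, a log2 fold change of 0.64 (standard error 0.104, adjusted p = 0.000164). HOM3, the aspartate kinase at the start of methionine and threonine synthesis, was the most different at 1.81 (adjusted p = 0.00102). The gene that was lower was PRO3 of proline synthesis, by 0.43 (log2 fold change -0.43, adjusted p = 0.0330).

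**Figure D2:**
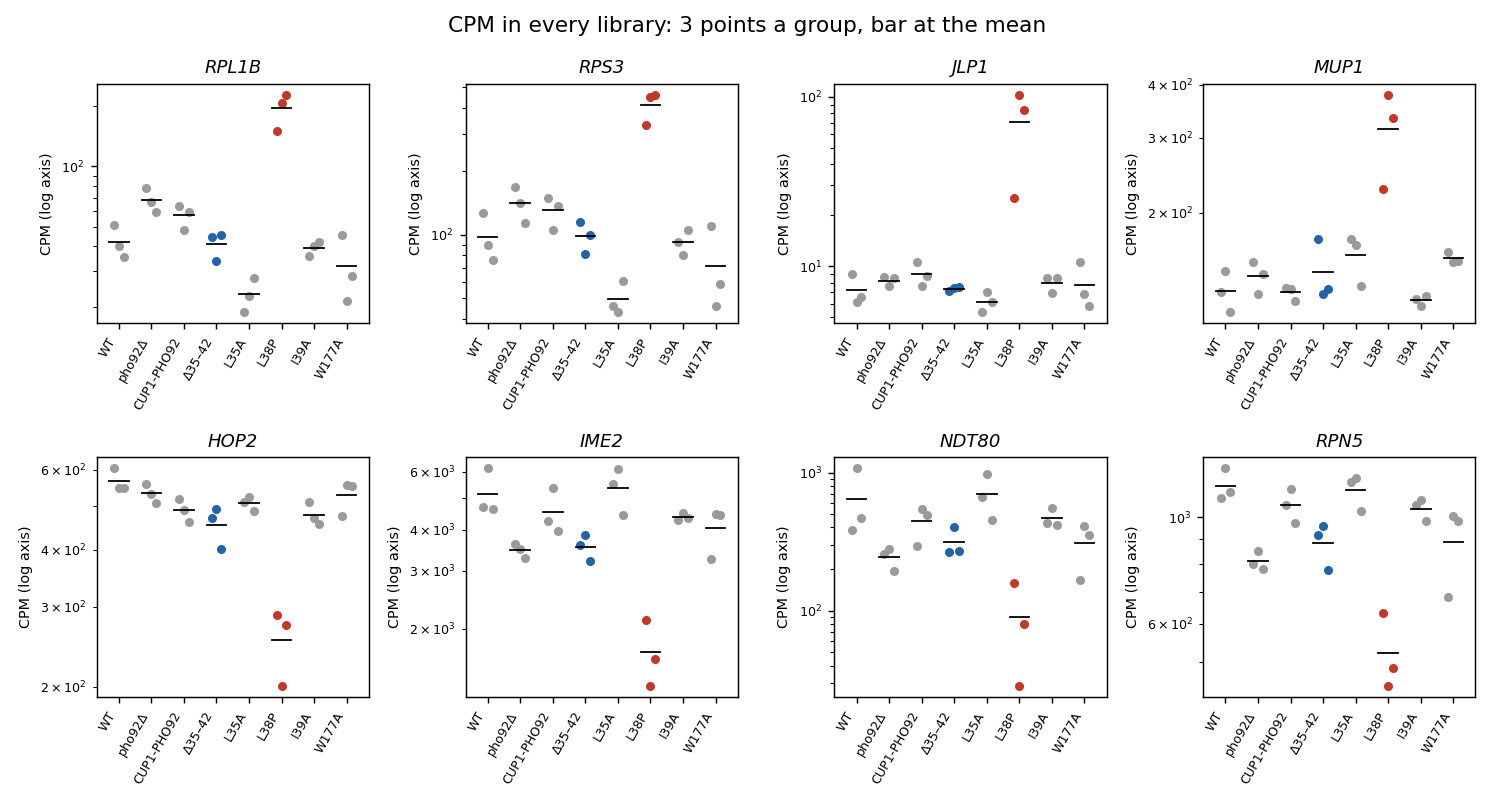
CPM on a log axis in each of 3 libraries (points) and the mean (bar) of the 8 groups, for 8 genes, with L38P in red and Δ35–42 in blue. JLP1 is at 25.4 to 103 CPM in L38P and 7.15 to 7.48 CPM in Δ35–42, and NDT80 is at 28.4 to 159 CPM in L38P and 264 to 402 CPM in Δ35–42.

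Regulators of meiotic entry were lower in L38P. IME1, the master activator, had 2554, 2279 and 1838 CPM in L38P and 4475, 3388 and 3226 CPM in Δ35–42. No L38P library reached the lowest Δ35–42 library, and the log2 fold change was -0.73 (standard error 0.177, adjusted p = 0.00412). IME2, the kinase that acts after Ime1, had 2134, 1341 and 1618 CPM against 3588, 3847 and 3224 CPM, a log2 fold change of -1.07 (standard error 0.172, adjusted p = 0.000162). Of the 10 regulators of the list, 6 were lower and none was higher, against 16.9% and 19.4% of all features. UME6, SIN3 and RPD3, which repress early genes in growing cells, and the RNA-binding protein gene RIM4 were the 4 that did not pass. Without L38P replicate 2, 3 of the 10 were called lower. In a fit of only the 6 libraries 3 were, and 2 when replicate number was added to that fit.

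The m6A methyltransferase complex was lower as well, in 5 of 6 genes, against 16.9% of all features. IME4, its catalytic subunit, had 210, 164 and 184 CPM in L38P and 268, 262 and 249 CPM in Δ35–42. The groups were apart, with a log2 fold change of -0.48 (standard error 0.0813, adjusted p = 0.000244). SLZ1, a further subunit of the complex, had 860, 510 and 764 CPM against 1308, 1568 and 1023 CPM, a log2 fold change of -0.87 (standard error 0.189, adjusted p = 0.00198). MUM2 was lower by 0.59 (log2 fold change -0.59, adjusted p = 0.000317). DYN2, a dynein light chain that is also part of the complex, gave 0.31 and did not pass. Without L38P replicate 2, and also without L38P replicate 3, 3 of the 6 were called lower, and without L38P replicate 1 a gene of the 6 was called higher. The level of m6A was not measured in these data.

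All 25 genes of early recombination and chromosome pairing were lower in L38P, against 16.9% of all features. Their median log2 fold change was -0.84, a 1.79-fold lower level. The smallest difference was -0.50 and the largest -1.21, that of ECM11, a gene of synaptonemal complex assembly. HOP2, which promotes strand exchange between homologous chromosomes, had 287, 201 and 273 CPM in L38P and 470, 492 and 401 CPM in Δ35–42. Its groups were apart and its log2 fold change was -0.84 (standard error 0.114, adjusted p = 2.69e-05). REC8, the meiotic cohesin subunit, had 1231, 888 and 992 CPM against 1869, 1848 and 1751 CPM, a log2 fold change of -0.81 (standard error 0.117, adjusted p = 5.26e-05). MEI5 and SAE3, partners in loading the recombinase Dmc1, gave -1.01 (standard error 0.143, adjusted p = 4.77e-05) and -0.74 (standard error 0.112, adjusted p = 8.54e-05). For 24 of the 25 genes the libraries of the strains did not overlap, against 42.1% of all features. The 25 genes were all lower with RLE scaling, and between 23 and 25 were when any 1 library was left out. In a fit of only the 6 libraries 24 were called lower, and 20 when replicate number was added to that fit.

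The HOP2 promoter carries the core of URS1, the element through which Ume6 holds early genes silent and then activates them, and it is shown for that reason. The letters GGCGGC were in 15 of the 25 early promoters (60%) and in 5.17% of all, on either strand. The window is on the plus strand of chromosome VII in R64, from 141 to 112 bases before the start codon.
HOP2: gattatgtcctcGGCGGCtaaattttccat

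Genes of the middle phase included the largest fold difference among all features lower in L38P, and their values were widely spread between libraries. NDT80 had 159, 28.4 and 79.9 CPM in L38P and 264, 402 and 271 CPM in Δ35–42. The L38P values were widely spread, yet all lay below Δ35–42, with a log2 fold change of -1.81 (standard error 0.486, adjusted p = 0.00787). Of 32 tested middle genes, 14 were lower and none was higher, against 16.9% and 19.4% of all features. Their median was -1.19. For 27 of the 32 the libraries did not overlap, against 42.1% of all features. MPC54, of the meiotic spindle pole outer plaque, had the smallest p of this list, with 289, 167 and 204 CPM in L38P and 514, 480 and 432 CPM in Δ35–42. Its log2 fold change was -1.11 (standard error 0.156, adjusted p = 3.92e-05). SPO1 and ADY3, which serve the spindle poles and the spore membranes, gave -0.99 and -1.17 (adjusted p = 0.000116 and 0.00412).

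SMK1, a kinase of spore wall assembly, had the largest difference, with 8.56, 1.00 and 3.30 CPM in L38P and 17.6, 46.3 and 10.2 CPM in Δ35–42. L38P replicate 2 was the lowest and Δ35–42 replicate 2 the highest, and the log2 fold change was -2.56 (standard error 0.894, adjusted p = 0.0315). The same order held for SPS4, with 112, 14.4 and 38.3 CPM against 161, 546 and 126 CPM, a log2 fold change of -2.34 (standard error 0.874, adjusted p = 0.0424). SPS2, RRT5, YDL186W, HXT14, RRT12, LDS1, SPO74, SPR3, CDA2 and OSW1 followed, from -2.39 (SPS2) to -1.86 (OSW1), among genes past the threshold with at least 10 CPM on average and no overlap between the strains. SPR2 of the spore wall list gave -2.48 and did not pass. All 12 missed the threshold without L38P replicate 2 (adjusted p 0.124 to 0.175), which is also the comparison within batch A. They missed it too without L38P replicate 3 (0.0791 to 0.138) and without Δ35–42 replicate 2 (0.124 to 0.259). With a batch term all 12 missed it (0.0594 to 0.128), and without Δ35–42 replicate 1 it was missed by 8 of the 12 (0.0413 to 0.0652 over the 12). With a covariate for the main axis of variation within groups, all 12 passed (adjusted p 6.28e-06 to 0.000174). This covariate was computed from the same libraries and takes up part of their spread. Its lower p-values are therefore no independent check. The number of the 32 middle genes called lower fell from 14 to 5 without any one of these 3 libraries, to 5 with a batch term and to 8 without Δ35–42 replicate 1. It was 26 in a fit of only the 6 libraries and 25 with the within-group covariate.

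Genes for the spore wall, which are among the last to be switched on, behaved like the middle genes. Of 16 tested, 8 were lower in L38P and none was higher, against 16.9% and 19.4% of all features. The median was -1.42. GAS4, a glucan-modifying enzyme of the spore wall, had 67.2, 16.9 and 36.5 CPM in L38P and 129, 196 and 94.3 CPM in Δ35–42. The groups were apart by -1.80 on the log2 scale (standard error 0.531, adjusted p = 0.0133). DTR1, a transporter for a dityrosine component of the spore wall, had 43.2, 9.65 and 18.4 CPM against 77.0, 123 and 54.2 CPM, a log2 fold change of -1.84 (standard error 0.653, adjusted p = 0.0336). The count of 8 fell to 1 without L38P replicate 2, to 2 without L38P replicate 3, to 3 without Δ35–42 replicate 1, to 1 without Δ35–42 replicate 2 and to 2 with a batch term. It was 12 in a fit of only the 6 libraries and 15 with the within-group covariate. GAS4 missed the threshold without L38P replicate 2 (adjusted p = 0.0767) and without Δ35–42 replicate 2 (adjusted p = 0.0587). DTR1 missed it without any one of those 4 libraries (adjusted p 0.0635 to 0.148).

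The NDT80 promoter is shown because Ndt80 binds the middle sporulation element (MSE) in its own promoter. The letters GNCACAAA, where N is any base, were in 17 of the 32 middle promoters (53.1%), in 9 of the 16 spore wall promoters (56.2%) and in 4.23% of all, on either strand. With C as its second base this motif holds the reverse complement of the Met31 and Met32 core, and no other motifs searched here overlap in this way. The window is on the plus strand of chromosome VIII in R64, from 232 to 203 bases before the start codon.
NDT80: ccaggccgtatGACACAAAagagtagaaaa

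The proteasome showed a small and even difference. Of 34 tested genes, 33 were lower in L38P and none was higher, against 16.9% and 19.4% of all features. The median was -0.56. RPN8, a subunit of the regulatory lid, had 378, 284 and 338 CPM in L38P and 616, 667 and 474 CPM in Δ35–42. It was lower in every L38P library, with a log2 fold change of -0.81 (standard error 0.146, adjusted p = 0.000403). RPN5, also of the lid, had 631, 445 and 485 CPM against 920, 958 and 776 CPM, a log2 fold change of -0.77 (standard error 0.141, adjusted p = 0.000539). RPN13 was the gene that did not pass, at -0.28. The number called fell to 17 without L38P replicate 2 and to 19 without Δ35–42 replicate 2. In a fit of only the 6 libraries it was 21, and 8 when replicate number was added to that fit. None of the 34 differed by as much as 1 on the log2 scale.

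The RPN5 promoter is shown for the proteasome-associated control element (PACE), which is bound by the activator Rpn4. The letters GGTGGCAAA were in 27 of 34 proteasome promoters (79.4%) and in 1.28% of all. The window is on the plus strand of chromosome IV in R64, from 148 to 119 bases before the start codon.
RPN5: ttgacttttcGGTGGCAAAatgcaaagggg

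Storage carbohydrates and autophagy, both features of starved cells, were lower in part. Of 19 genes for trehalose and glycogen, 14 were lower and none was higher, against 16.9% and 19.4% of all features. The median was -0.57. GLG2, a glycogenin that primes glycogen, had 156, 150 and 165 CPM in L38P and 240, 263 and 223 CPM in Δ35–42. The values were well apart, with a log2 fold change of -0.62 (standard error 0.0818, adjusted p = 2.02e-05). The stress response element, searched as AGGGG, was in 10 of the 19 promoters (52.6%) and in 22.7% of all. The count of 14 fell to 7 without L38P replicate 2 and to 7 without Δ35–42 replicate 1. Of 32 autophagy genes, 13 were lower and 2 were higher, against 16.9% and 19.4% of all features. ATG8, the ubiquitin-like protein of the autophagosome membrane, had 371, 300 and 301 CPM against 565, 652 and 505 CPM, a log2 fold change of -0.82 (standard error 0.111, adjusted p = 2.69e-05). ATG41, an autophagy gene, went the other way with 44.4, 89.0 and 75.4 CPM in L38P and 24.3, 22.6 and 18.4 CPM in Δ35–42, a log2 fold change of 1.68 (standard error 0.323, adjusted p = 0.000776). ATG10, an E2-like enzyme, was the other higher gene at 0.82 (adjusted p = 0.0139). The 13 lower calls fell to 8 without L38P replicate 2. They fell to 7 in a fit of only the 6 libraries, and to 3 when replicate number was added to that fit.

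Genes for carbon sources other than glucose were mixed. For the counts in this paragraph, the shares over all features were 16.9% lower and 19.4% higher. PCK1, the key enzyme of gluconeogenesis, had 1845, 1489 and 1760 CPM in L38P and 3662, 3163 and 2444 CPM in Δ35–42. It was lower in every L38P library, with a log2 fold change of -0.86 (standard error 0.182, adjusted p = 0.00153). FOX2, of peroxisomal beta-oxidation, had 2151, 1700 and 1780 CPM against 4023, 3364 and 2787 CPM, a log2 fold change of -0.85 (standard error 0.164, adjusted p = 0.000764). In all, 9 of 20 fatty acid oxidation genes were lower and 2 higher, and 5 of 18 acetate and gluconeogenesis genes were lower and none higher. Those 5 fell to 2 without L38P replicate 2, without L38P replicate 3 or without Δ35–42 replicate 1, and to 3 without Δ35–42 replicate 3 or with a batch term. Without L38P replicate 1, 5 of the 18 were called higher and 5 lower. The 2 higher calls of fatty acid oxidation became 4 without L38P replicate 1 and 1 without Δ35–42 replicate 2. They became 0 without L38P replicate 2, without L38P replicate 3, without Δ35–42 replicate 1 or with a batch term. The 9 lower calls of that list fell to 6 in a fit of only the 6 libraries. With replicate number added to that fit they fell to 3. Of 28 heat shock genes, 11 were lower and 3 higher, and SSA1, a cytosolic Hsp70, gave -0.87 (standard error 0.217, adjusted p = 0.00498). The 11 fell to 5 without L38P replicate 2, and to 6 without Δ35–42 replicate 1 or without Δ35–42 replicate 2.

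Further groups had few calls or calls in both directions, and their counts depended on single libraries. Over all features 19.4% were higher and 16.9% lower. Counts near these shares, such as those of the replication genes below, show nothing particular to a group. The CCR4-NOT deadenylase had 1 of 10 genes higher and 1 lower, the latter being its scaffold CDC39 at -0.83 (standard error 0.202, adjusted p = 0.00427). Of 20 other mRNA decay factors 3 were lower and none was higher, among them the helicase DHH1 at -0.70 (standard error 0.181, adjusted p = 0.00618) and the exonuclease XRN1 at -0.45 (standard error 0.104, adjusted p = 0.00314). None of the 5 PAF1 complex genes passed in either direction by edgeR, CTR9 and RTF1 being nearest with 0.39 and 0.20 (adjusted p = 0.181 and 0.222). None of the 5 had an unadjusted p under 0.05, and none was called by DESeq2. With the within-group covariate CTR9 was called higher by edgeR, at 0.40 (adjusted p = 0.00263). Without L38P replicate 1, 8 of the 20 decay factors were lower (7 by DESeq2 with all libraries), and without Δ35–42 replicate 3, 2 were higher. Copper and iron genes, which bear on the inducer, had 3 of 27 higher and 3 lower. CTR3, a copper transporter, was at 17.8, 9.34 and 13.1 CPM in L38P and 25.2, 35.7 and 24.6 CPM in Δ35–42, a log2 fold change of -1.09 (standard error 0.193, adjusted p = 0.000372). Of 30 genes for the G1 to S transition and replication, 5 were higher and 5 lower, the former including the sliding clamp POL30 at 0.73 (standard error 0.161, adjusted p = 0.00213). Histones had 2 of 10 higher and 1 lower, phosphate genes 4 of 27 and 3, nitrogen genes 1 of 27 and 3, hexose transporters 2 of 15 and 4, and cell wall mannoproteins 0 of 26 and 6. Without L38P replicate 1, 9 nitrogen genes were lower and none higher. Without Δ35–42 replicate 3, 3 nitrogen genes were higher and 6 phosphate genes lower. Without Δ35–42 replicate 1, and also without Δ35–42 replicate 2, 1 phosphate gene was higher. Replication genes called higher fell to 2 without L38P replicate 2 or without Δ35–42 replicate 2, and those called lower fell to 3 without L38P replicate 2. Without L38P replicate 2, nitrogen genes and histones had no call in either direction, hexose transporters had 1 higher and 2 lower, and cell wall mannoproteins had 2 lower.

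**Figure D3:**
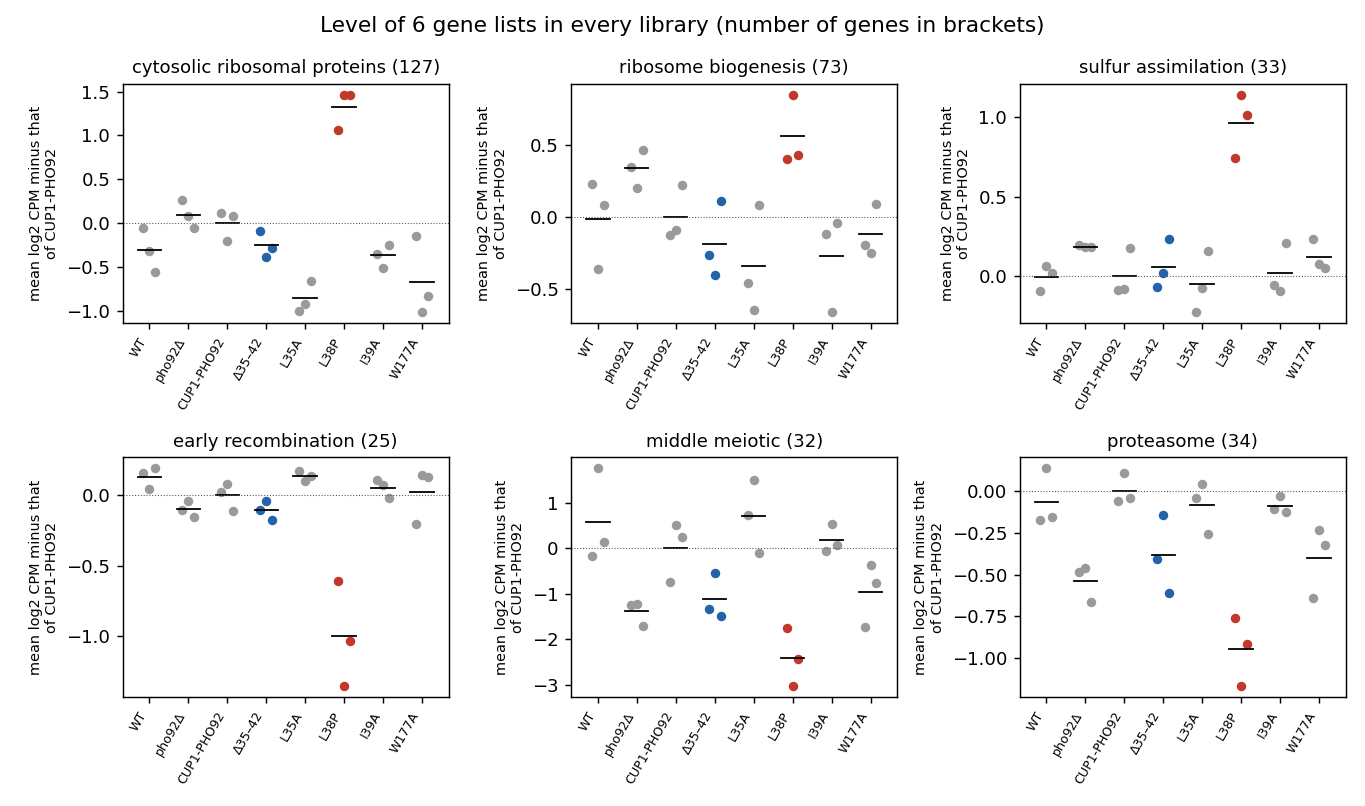
Mean log2 CPM of 6 gene lists in each library (points) relative to the mean of CUP1-PHO92 (dotted line), with the group mean (bar), for all 8 groups and with L38P in red and Δ35–42 in blue. The ribosomal protein level is 1.06 to 1.47 in L38P and -0.38 to -0.09 in Δ35–42, and the early recombination level is -1.36 to -0.61 in L38P and -0.18 to -0.04 in Δ35–42.

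Set against wild-type Pho92 from the same promoter, the strains took different positions. These comparisons share the CUP1-PHO92 libraries with each other, so only each one's own values are given. Against CUP1-PHO92, 23.1% of features were higher and 20.9% lower in L38P, while 11.9% were higher and 9.97% lower in Δ35–42. For the 127 ribosomal protein genes, L38P had 122 higher, none lower and a median of 1.37, and Δ35–42 had none higher, 4 lower and a median of -0.26. For the 33 sulfur genes, L38P had 26 higher and a median of 1.00, and Δ35–42 had 3 higher, 2 lower and a median of 0.06. For the 25 early recombination genes, L38P had 24 lower and a median of -0.92, and Δ35–42 had 2 lower and a median of -0.11. In these 3 lists, most of the distance between the strains lay between L38P and CUP1-PHO92.

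Other lists lay differently. Mitochondrial ribosomal protein genes had 50 of 67 lower in Δ35–42 than in CUP1-PHO92 with a median of -0.56, and 11 lower and 3 higher in L38P with a median of -0.11. RSM26 was lower by 0.96 in Δ35–42 (log2 fold change -0.96, adjusted p = 1.28e-05) and gave -0.23 in L38P (adjusted p = 0.0875). Proteasome genes were lower in both strains, with 34 of 34 and a median of -0.93 in L38P and 18 of 34 and a median of -0.38 in Δ35–42. Middle genes had medians of -2.49 in L38P, with 29 of 32 lower, and -1.15 in Δ35–42, with 1 lower and 1 higher. For the trehalose and glycogen list the medians were -0.27 in L38P and 0.41 in Δ35–42, where 7 of 19 genes were higher and none lower. GDB1, the glycogen debranching enzyme, was higher in Δ35–42 by 0.76 (adjusted p = 0.0103) and gave -0.14 in L38P (adjusted p = 0.593).

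**Figure D4:**
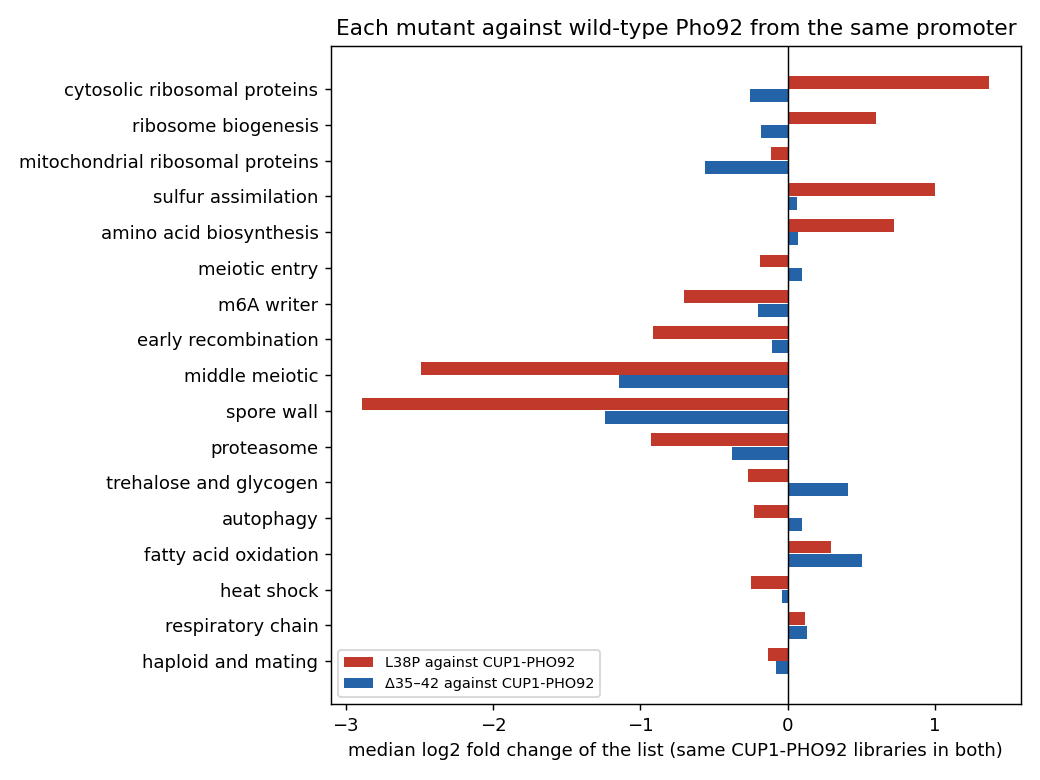
Median log2 fold change of 17 gene lists in L38P (red bars) and in Δ35–42 (blue bars), each against CUP1-PHO92, on an axis that includes 0. The ribosomal protein medians are 1.37 and -0.26, the early recombination medians -0.92 and -0.11, and the mitochondrial ribosomal protein medians -0.11 and -0.56.

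Against pho92Δ, which lacks the protein, the medians of Δ35–42 lay nearer to 0 than those of L38P for most of the lists described at length. The ribosomal protein list had a median of 1.28 in L38P and -0.34 in Δ35–42, and the early recombination list -0.85 and 0.02. The middle list had -0.98 and 0.37, the sulfur list 0.75 and -0.11 and the proteasome list -0.37 and 0.17. Ribosome biogenesis was an exception, at 0.22 in L38P and -0.50 in Δ35–42. NDT80, JLP1 and IME1 each had their most extreme mean of the 8 groups in L38P, JLP1 the highest and the others the lowest. In Δ35–42 these genes were at ranks 5 (NDT80) and 6 (JLP1 and IME1) counted from the highest mean. These comparisons share the pho92Δ libraries, and no test of the difference between them was made beyond the direct comparison of L38P with Δ35–42 above.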

How the data were processed

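The values were raw counts per feature, deposited by the authors in one table and not normalized. STAR 2.7.10a, RSEM 1.3.1 and DESeq2 1.48.1 appear in the submitters' processing notes with no role. Genome build, annotation and strand setting are not given in the sources used here. Of 6157 features, 5620 matched a locus tag of RefSeq R64, which supplied names and sequences. Computation was in R 4.3.3 with edgeR 4.0.16 (on limma 3.58.1), and with DESeq2 1.42.0 as an alternative. After TMM scaling and filterByExpr at its defaults (459 features removed, 5698 tested), all 24 libraries entered 1 quasi-likelihood model (glmQLFit, a mean for each group, 16 residual degrees of freedom). The contrast of L38P and Δ35–42 was tested by glmQLFTest. Benjamini-Hochberg adjustment covered the 5698 features, with a threshold of 0.05 and no minimum fold change. CPM are counts per 1000000 of the TMM-scaled library size, and log2 CPM used a prior count of 2. The steps were tested on simulated data.

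Groups came from sample titles and genotypes. The labels do not say that replicates are separate cultures, so p-values measure the spread between these samples. Replicates of each strain differed by more than sampling noise. Same-numbered libraries of the strains were not treated as pairs in the main model. Their deviations from the group means had correlations of 0.18, -0.30 and -0.22 for replicates 1 to 3. These values cannot settle whether a replicate number marks samples handled together. On the leading axis of variation within groups, replicate 2 scored highest in most of the 8 groups, but not in L38P. Floors cover counting error only.

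Genes were named by rule: PHO92, TRP1, IME1, IME4 and NDT80; the 12 largest differences in each direction among features past the threshold, with a mean of at least 10 CPM and no overlap; and up to 4 members with the smallest p of each of 28 lists. A gene given by this rule is not reported here. Others were chosen after their values were seen, for their size, their role or for missing the threshold. The members and lists were chosen with earlier results of these data known. Alternatives were RLE scaling, no filter, a fit of the 6 libraries, a replicate block and DESeq2. Further ones were a covariate for the leading within-group axis, a batch term, a minimum log2 fold change of 1, and leaving out each library. The within-group covariate was the leading axis of the deviations of all 24 libraries from their group means, so it came from the data tested.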

Additional observations from a re-analysis of the deposited data

How the results depend on the processing

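The 2069 calls (1107 higher, 962 lower) became 1289 (720 higher, 569 lower) in a fit of only the 6 libraries and 320 (256 and 64) with a minimum log2 fold change of 1. With the replicate block they were 2379 (1315 and 1064) over 24 libraries and 911 (543 and 368) over 6. Whether the replicate numbers pair the samples is not known. Leaving out 1 library gave 1123 to 2399 calls, 635 to 1248 higher and 488 to 1151 lower. The lowest counts came without L38P replicate 2 (1123) and without Δ35–42 replicate 1 (1243). RLE scaling (2112), no filter (2060), DESeq2 (2291), the within-group covariate (2647) and the batch term (1554) stayed within 1.5 times. In the fit of 6 libraries 26 middle genes and 21 proteasome genes were called lower, against 14 and 33. No named gene changed its direction under these alternatives. Of 122 named genes past the threshold, 71 stayed past it under every alternative other than the minimum fold change, and 51 missed it under at least 1. With RLE scaling 48.3% of the calls were higher in L38P, against 53.5% with TMM, and the median of all features was -0.02 against 0.02. Batch B held a single library of the 6, so no value within batch B could be had. Of the 43 features whose names begin with Unit, 27 were tested. Among these, 1 was higher and 3 were lower, against 19.4% and 16.9% of all features.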

Other observations

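Outside the 28 gene lists lay 784 of the 1107 features higher in L38P than in Δ35–42 and 788 of the 962 lower. Over all 5698 features, 19.4% were higher and 16.9% lower. These counts show nothing particular to the features outside the lists. The genes below were chosen after their values were seen, from the 10 with the largest change in each direction that had at least 10 CPM on average and no overlap between the groups. ZRT1, the high-affinity zinc transporter, averaged 694 CPM in L38P and 184 CPM in Δ35–42, a log2 fold change of 1.91 (standard error 0.267, edgeR adjusted p = 3.88e-05). Several others serve the nucleolus or ribosome assembly. They were SRP40 (1.77, adjusted p = 0.000895), MRT4 (1.43, adjusted p = 0.00617) and RSA4 (1.36, adjusted p = 0.00293). SAM4, which makes methionine from homocysteine with S-adenosylmethionine as the methyl donor, was higher by 1.47 (standard error 0.192, adjusted p = 1.81e-05).

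Among the lower genes were MAM1, a monopolin subunit that directs sister kinetochores to one pole in meiosis I, and GIP2, a partner of the phosphatase Glc7. MAM1 averaged 18.5 CPM in L38P and 51.9 CPM in Δ35–42, a log2 fold change of -1.50 (standard error 0.437, adjusted p = 0.0126). GIP2 averaged 169 CPM and 433 CPM, a log2 fold change of -1.36 (standard error 0.256, adjusted p = 0.000661). SPO23, a gene of meiosis, averaged 86.5 CPM and 235 CPM, a log2 fold change of -1.44 (standard error 0.489, adjusted p = 0.0273). These genes were not followed through the alternatives.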
